A study of Mus musculus with 6 samples.

Results

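The insulin-like growth factor (IGF) axis was examined in the bulk transcriptome of sorted mouse corneal keratocytes with and without Ptch1. It was taken as 10 genes of the 17606 in the expression table: the ligands Igf1 and Igf2, the receptors Igf1r and Igf2r, and the IGF-binding protein genes Igfbp2, Igfbp3, Igfbp4, Igfbp5, Igfbp6 and Igfbp7. Their Entrez identifiers are 16000 for Igf1, 16002 for Igf2, 16001 for Igf1r and 16004 for Igf2r, 16008, 16009, 16010, 16011 and 16012 for Igfbp2 to Igfbp6, and 29817 for Igfbp7. The genes were found by symbol, and they had been chosen for their measured values in the comparison of Ptch1-ablated with control cells, so their differences between the groups are given as a description with no test.

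IGF1 and IGF2 are small secreted hormones that resemble insulin and act through the tyrosine kinase receptor IGF1R, which signals through docking proteins to PI3K, Akt and mTOR. IGF2R, the cation-independent mannose-6-phosphate receptor, takes IGF2 up for degradation, and the secreted IGF-binding proteins (IGFBPs) hold the ligands in the extracellular space, where proteases release them. In the cornea, IGF1 is known as a growth factor for stromal and epithelial cells, and keratocytes are the mesenchymal cells that make and maintain the collagenous stroma.

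The Ptch1-ablated group came from Prrx1-CreERT mice with floxed Ptch1, and the other group was labelled only as control, so the alleles it carried are not given in the sources used here. Each group had 3 libraries, described in the methods as biological replicates. They came from mice labelled as 10 weeks old that received 3 doses of tamoxifen, the drug that activates CreERT. The cells were taken 1 month after treatment. Whether 10 weeks was the age at dosing or at collection was not settled. Prrx1-CreERT also recombines in corneal endothelium and other mesenchyme of the eye. Keratocytes were collected from the cornea by fluorescence-activated sorting, and the comparison asked how sustained Hedgehog signaling, which Ptch1 normally restrains, changes their transcripts.

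Library totals ran from 20258439 to 24788063 estimated counts, and all 10 genes passed the filter on low counts that left 13888 genes. The summed TPM (transcripts per 1000000, a level divided by transcript length) of 8 keratocyte markers was 102928 to 118712 in controls and 79924 to 95958 in ablated libraries, with Kera, Lum and Dcn abundant in every library. The targeted gene Ptch1 was at 2.80 ± 1.66 TPM in controls and 71.5 ± 10.2 after ablation (SD, n = 3), and the Hedgehog-responsive gene Gli1 at 0.527 ± 0.461 and 86.0 ± 5.73. A gene total does not resolve the deleted exons, so Ptch1 itself does not check the deletion. In bulk RNA, fewer cells of a type and less RNA per cell cannot be told apart.

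The 10 genes spanned a wide range of abundance, from Igfbp2 at rank 3 to Igf1 at rank 12555 by TPM in control replicate 1, and the binding proteins held its upper end. In controls, Igfbp2 was the most abundant at 15326 ± 4501 TPM, followed by Igfbp4 at 1739 ± 259, Igf2 at 144 ± 13.4 and Igfbp5 at 134 ± 16.6 (SD, n = 3). Igf1r at 26.1 ± 3.48, Igfbp6 at 18.5 ± 4.09, Igfbp7 at 15.0 ± 2.35 and Igf2r at 12.7 ± 1.42 lay in the middle, and Igfbp3 at 4.04 ± 2.14 and Igf1 at 2.45 ± 1.89 were lowest. Neighbours whose library ranges overlapped in controls were Igf2 and Igfbp5, Igfbp6 and Igfbp7, Igfbp7 and Igf2r, and Igfbp3 and Igf1. In ablated libraries the order became Igfbp2, Igfbp4, Igfbp6, Igfbp5, Igf2, Igfbp7, Igfbp3, Igf1r, Igf2r and Igf1. There the ranges overlapped between Igfbp2 and Igfbp4, Igfbp6 and Igfbp5, Igf2 and Igfbp7, and Igfbp3 and Igf1r. Igfbp6 thus moved from place 6 to place 3.

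**Figure D1:**
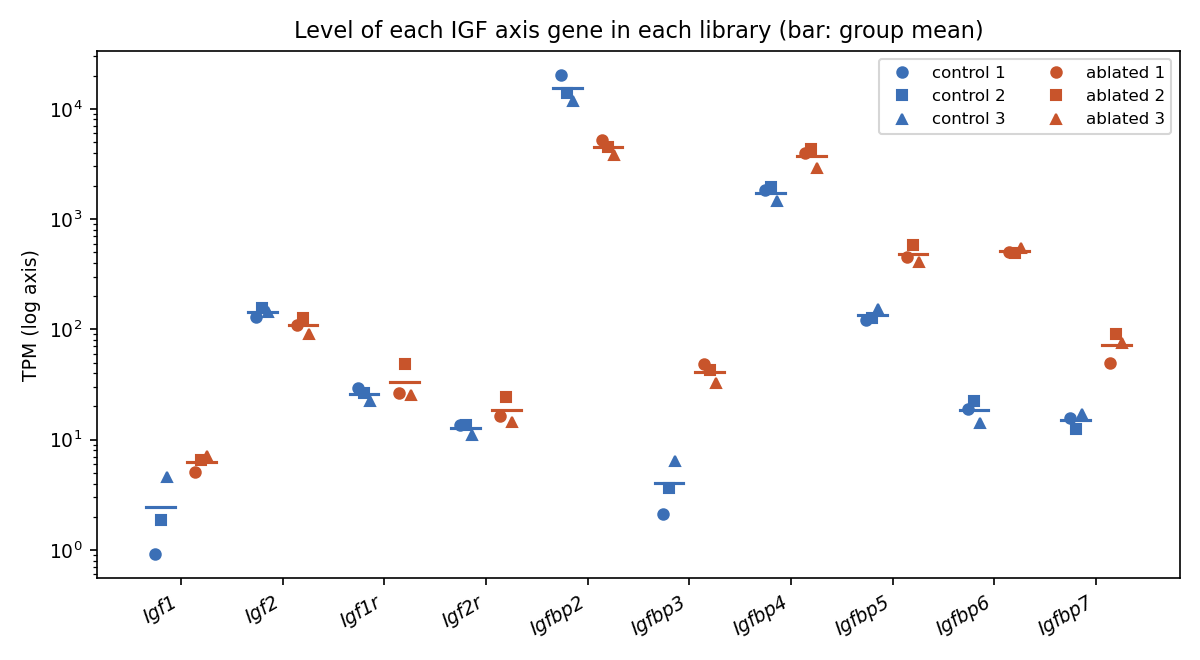
TPM on a log axis (vertical) of each IGF axis gene (horizontal) in the 3 control libraries (blue) and the 3 Ptch1-ablated libraries (orange), with a bar at each group mean. The groups are farthest apart for Igfbp6, at 14.2 to 22.4 TPM against 492 to 545, and they overlap for Igf1r.

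Of the 10 genes, 4 were past an edgeR adjusted p of 0.05 with a fold change of at least 2 toward higher values and 1 toward lower values, against 3.36% and 2.13% of all genes tested. Without the fold minimum the counts were 5 and 2, against 4.68% and 3.8%. The libraries of the groups did not overlap in CPM (counts per 1000000 of the normalised library total) for 5 genes that were higher and 2 that were lower, against 14.1% and 13.3% of all genes, and overlapped for 3. The median log2 fold change of the 10 genes, ablated over control, was 1.02, beside 0.0046 over all genes tested. Of the 10 values, 8 were above 0. Since the genes were chosen on this comparison, nothing is read from these counts or from the median.

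Igfbp2 encodes a binding protein with an integrin-binding RGD motif. In TPM, with libraries in the order of their replicate numbers here and throughout, the controls stood at 20354, 13949 and 11675 and the ablated libraries at 5184, 4528 and 3792. Every ablated library was below every control library, although the controls were spread over a wider range. This was a log2 fold change of -1.98 ± 0.19 (SE), a level 3.95-fold lower. By TPM, Igfbp2 was the gene of rank 3, 6 and 8 in controls and of rank 13, 17 and 22 after ablation, so it remained among the most abundant transcripts of these cells. It alone made up 1.53 ± 0.450% of all TPM in controls and 0.450 ± 0.0697% after ablation (SD, n = 3).

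Igfbp6 encodes the binding protein that prefers IGF2 to IGF1, and it had the largest difference of the 10 genes. Its TPM was 19.0, 22.4 and 14.2 in controls against 501, 492 and 545 after ablation. The ablated libraries lay close together, with a coefficient of variation of 5.50% beside 22.1% in controls, and no library came near the other group. The underlying counts were 222, 228 and 168 against 5459, 4991 and 6452. Igfbp6 was thus 23.9-fold higher (log2 fold change 4.58 ± 0.22, SE), and its rank by TPM was 5215 to 6930 in controls and 216 to 245 in ablated libraries.

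Igfbp3 encodes the main carrier of IGFs in blood, where it forms a complex with IGFALS. Control libraries held 2.12, 3.65 and 6.35 TPM, and ablated libraries 48.6, 42.5 and 32.4. The control with the highest value was still below the lowest ablated library. Igfbp3 was 8.82-fold higher (log2 fold change 3.14 ± 0.38, SE). Its control counts were 52, 78 and 157, and the coefficient of variation in controls was 53.0%.

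Igfbp5, whose protein binds extracellular matrix and hydroxyapatite, had 121, 128 and 153 TPM in controls and 455, 582 and 404 in ablated libraries. The values formed separate groups, with coefficients of variation of 12.4% and 19.0%. Its level was 3.08-fold higher (log2 fold change 1.62 ± 0.14, SE). In the RefSeq gene order Igfbp5 is the protein-coding neighbour of Igfbp2, and the pair moved in opposite directions. The other adjacent pair holds Igfbp3 and Igfbp1, the latter absent from the expression table.

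Igfbp7 encodes a secreted protein with low affinity for IGFs and an affinity for insulin, known from vascular basement membranes. It had 15.6, 12.4 and 17.0 TPM in controls and 49.97, 90.7 and 75.3 in ablated libraries. The ablated libraries differed among themselves more than the controls did, yet all were above them. Igfbp7 was 4.13-fold higher (log2 fold change 2.05 ± 0.31, SE). Vascular endothelial markers moved alongside: their summed TPM over 7 genes was 271 to 357 in controls and 485 to 511 in ablated libraries. At an edgeR adjusted p of 0.05, 5 of 7 were higher and 0 lower, against 4.68% and 3.8% of all genes. Kdr, at 195 ± 34.7 and 171 ± 11.3 TPM (SD, n = 3), and Tek were the 2 that did not pass. The 7 mural cell markers summed to 457 to 531 and 877 to 950 TPM, with 3 higher and 0 lower. No marker of either list was at 0 in all libraries. Their part in the level of Igfbp7 was not tested. Igfbp7 also overlaps the annotated gene Polr2b, and the strandedness of the libraries is not given in the sources used here.

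Igfbp4 encodes a binding protein that is cut by the protease PAPP-A. It had 1824, 1944 and 1448 TPM in controls and 3984, 4331 and 2930 in ablated libraries. All ablated values were above all control values. With a log2 fold change of 0.89 ± 0.15 (SE), or 1.85-fold higher, it lay under the fold minimum of 2. As one of the most abundant genes, it carried the largest gain in transcripts of the binding proteins in TPM.

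The make-up of the IGFBP transcripts therefore differed between the groups. Of the summed TPM of the 6 genes, Igfbp2 held 91.1%, 86.9% and 87.7% in controls but 50.7%, 45.0% and 48.7% after ablation. Igfbp4 held 10.4 ± 2.02% in controls and 39.9 ± 2.79% after ablation (SD, n = 3), so that the ratio of Igfbp2 to Igfbp4 went from 8.80 ± 2.09 to 1.21 ± 0.146. The shares of the minor members were higher as well. The share of Igfbp5 went from 0.829 ± 0.304% to 5.14 ± 0.664%, that of Igfbp6 from 0.110 ± 0.0273% to 5.60 ± 1.22%, that of Igfbp7 from 0.0914 ± 0.0313% to 0.786 ± 0.259% and that of Igfbp3 from 0.0266 ± 0.0194% to 0.438 ± 0.0323%. None of the 6 shares overlapped between the groups. The shares add up to the whole, so a lower share of Igfbp2 by itself raises the others. Since the genes were also chosen on this comparison, nothing is read from that separation. The summed level was 17236 ± 4625 TPM in controls and 9355 ± 1368 in ablated libraries, and without Igfbp2 it was 1910 ± 244 and 4854 ± 792 (SD, n = 3). The direction of the total was thus set by Igfbp2. With counts not divided by length, the share of Igfbp2 was 77.4% in controls and 29.0% in ablated libraries.

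**Figure D2:**
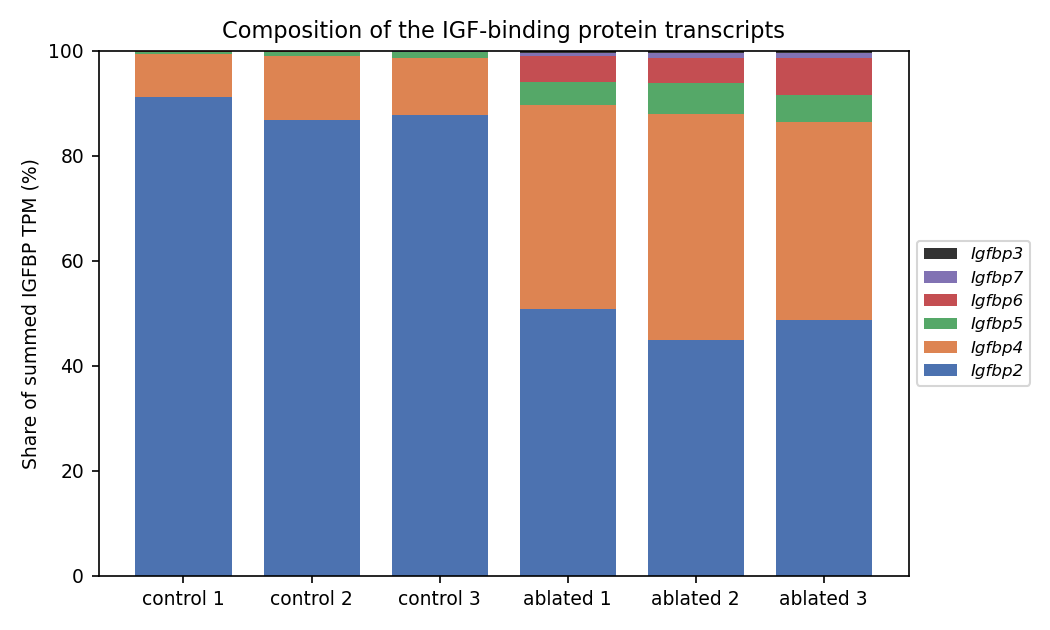
Share of each gene in the summed TPM of the 6 IGFBP genes (vertical, percent) in each library (horizontal). Igfbp2 (blue) holds 86.9% to 91.1% in the controls and 45.0% to 50.7% in the ablated libraries, where Igfbp4, Igfbp5 and Igfbp6 take up most of the rest.

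The promoter sequences of the binding proteins at the extremes, and of the neighbour of Igfbp2, are shown because these related genes moved in opposite directions. Each is the 250 bases before an annotated start, 5′ to 3′ on the strand of the gene, from RefSeq on GRCm38.p6. Capitals mark the hexamer CCGCCC or its reverse complement GGGCGG, the core of the GC box, and TATAAA or its reverse complement TTTATA. The windows are chr1:72824230-72824479 (plus strand, the upstream one of 2 Igfbp2 starts), chr1:72874866-72875115 (minus strand, Igfbp5) and chr15:102143936-102144185 (plus strand, Igfbp6).
Igfbp2: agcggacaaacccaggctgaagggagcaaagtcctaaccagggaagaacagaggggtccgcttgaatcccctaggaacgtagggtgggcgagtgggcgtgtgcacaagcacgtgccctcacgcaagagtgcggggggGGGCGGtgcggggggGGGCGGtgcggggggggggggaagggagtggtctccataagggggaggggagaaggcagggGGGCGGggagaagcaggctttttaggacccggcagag
Igfbp5: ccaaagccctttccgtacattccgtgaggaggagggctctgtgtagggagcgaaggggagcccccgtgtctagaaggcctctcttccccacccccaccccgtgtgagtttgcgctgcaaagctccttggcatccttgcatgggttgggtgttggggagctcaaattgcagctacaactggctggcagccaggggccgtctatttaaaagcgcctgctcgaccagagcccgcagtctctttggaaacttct
Igfbp6: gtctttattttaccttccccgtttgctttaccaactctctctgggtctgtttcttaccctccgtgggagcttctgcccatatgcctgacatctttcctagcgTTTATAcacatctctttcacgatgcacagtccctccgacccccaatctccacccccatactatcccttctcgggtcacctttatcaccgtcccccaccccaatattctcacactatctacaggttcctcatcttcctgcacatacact

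The Igfbp2 window was rich in G and C, at 67.2%, and held 3 GC boxes at -113, -98 and -37 from the start. The window of the other Igfbp2 start, chr1:72825137-72825386, had 56.4% GC and neither hexamer. The Igfbp5 window had 58.8% GC and neither hexamer. The Igfbp6 window had 49.6% GC, no GC box, and 1 TATA hexamer on the opposite strand at -148. Among 32851 windows of all genes the median GC content was 52.4%, 32.7% held a GC box and 12.4% a TATA hexamer. All 10 genes had a window, 14 in total, of which 6 held a GC box (Igf1r, Igf2, Igf2r, Igfbp2 and Igfbp7) and 2 the TATA hexamer (Igfbp4 and Igfbp6). The Gli consensus GACCACCCA, searched on both strands, was in 0 of the 14 windows and in 0.225% of all windows. These matches describe letters in short windows only.

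Of the ligands, Igf2 was the more abundant in every library. It had 130, 157 and 144 TPM in controls and 109, 127 and 90.7 in ablated libraries. The ablated values were all lower, but the highest of them came close to the lowest control. Igf2 was 1.52-fold lower (log2 fold change -0.60 ± 0.16, SE). Scaling by library totals alone gave -0.43. Igf2 lies in an imprinted cluster and is copied from the paternal allele in most tissues. It overlaps the annotated genes Igf2os and Mir483, whose transcripts are not analysed here.

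Igf1 was the least abundant of the 10 genes in both groups. It had 0.910, 1.88 and 4.56 TPM in controls, from 69, 124 and 349 counts, and 5.09, 6.55 and 7.14 TPM after ablation. The ranges did not overlap in TPM but touched in CPM, where control replicate 3 had 15.3 and ablated replicate 1 also 15.3. The log2 fold change was 1.16 ± 0.48 (SE), the largest error among the 10 genes. It rested in part on control replicate 3, without which it was 1.94, whereas without control replicate 1 it was 0.77. The same library had the highest Igfbp3, Ptch1 and Gli1 of the controls. Leukocyte markers, which include those of the macrophages known to make IGF1, summed to 1570 to 1802 TPM in controls and 1479 to 1926 in ablated libraries, of which Lyz2 alone held 1251 ± 119 and 1191 ± 189 TPM (SD, n = 3). Among the other leukocyte markers, Itgam rose from 15.6 ± 2.67 to 31.4 ± 5.68 TPM (SD, n = 3, edgeR adjusted p = 0.0316). Csf1r, at 151 ± 24.4 and 205 ± 17.8 TPM, did not pass (edgeR adjusted p = 0.462). Nor did Ptprc (log2 fold change 0.19), Lyz2 (-0.28), Adgre1 (-0.32) or Cd68 (-0.13). Tyrobp, at 168 ± 47.0 and 113 ± 28.2 TPM, did not pass either (-0.79, edgeR adjusted p = 0.143). The median log2 fold change of the 7 markers was -0.13. Their part in the level of Igf1 was not tested. The ratio of Igf2 to Igf1 was 143, 83.6 and 31.5 in controls and 21.3, 19.4 and 12.7 in ablated libraries, without overlap. The summed ligand level, 146 ± 13.9 against 115 ± 18.0 TPM (SD, n = 3), did overlap.

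The receptors differed least. Igf1r had 29.5, 26.2 and 22.5 TPM in controls and 26.2, 48.0 and 25.2 in ablated libraries. Only ablated replicate 2 stood above the controls. The log2 fold change was 0.12 ± 0.22 (SE) and became -0.18 without that library. Igf1r was the one gene of the 10 with split reads in all 6 libraries, which leaves its counts less certain. Igf2r had 13.5, 13.5 and 11.1 TPM in controls and 16.4, 24.3 and 14.5 in ablated libraries, with the ranges overlapping in CPM and not in TPM. Its log2 fold change was 0.31 ± 0.21 (SE), and 0.11 without ablated replicate 2. The ratio of Igf1r to Igf2r, 2.05 ± 0.123 in controls and 1.77 ± 0.191 after ablation (SD, n = 3), overlapped between the groups. Ablated replicate 2 had the highest TPM of its group for 6 of the 10 genes, and ablated replicate 3 the lowest for 7.

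Genes related to the axis by function or by protein domain were then compared. Their lists hold none of the 10 genes and were drawn up with earlier results of these data known. They include genes whose proteins carry an IGFBP domain but bind IGFs weakly or not at all. Of 81 genes, 73 were in the table and 71 were tested. At an edgeR adjusted p of 0.05, 10 rose (14.1%) and 4 fell (5.63%), against 4.68% and 3.8% of all genes, and 57 did not pass. Their median log2 fold change was 0.15. Since the lists were drawn up with earlier results known, nothing is read from these counts or from this median. Of other ligands, receptors and carriers, 2 were tested, Insr, which rose, and Igfals, which did not pass.

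Insr, the insulin receptor, which also pairs with IGF1R in hybrid receptors, had 18.7, 25.2 and 25.5 TPM in controls and 49.0, 67.1 and 44.3 in ablated libraries. It rose in all ablated libraries over all controls (log2 fold change 0.99 ± 0.18, SE, edgeR adjusted p = 0.00381). The ratio of Insr to Igf1r was 0.910 ± 0.253 in controls and 1.68 ± 0.246 after ablation (SD, n = 3), with no overlap. Insr thus exceeded Igf1r in every ablated library, while in the controls it did so in replicate 3 alone.

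Of 7 tested genes for proteases that cut IGFBPs and for their inhibitors, 2 rose and 2 fell, against 4.68% and 3.8% of all genes. Stc1, which encodes stanniocalcin-1, an inhibitor of PAPP-A, went from 0.770, 1.68 and 1.12 TPM to 28.6, 44.6 and 28.5 (log2 fold change 4.61 ± 0.35, SE, edgeR adjusted p = 5.35e-06). Its difference was of the size seen for Igfbp6. Adamts1, a secreted metalloproteinase of the ADAMTS family, rose by 1.40 ± 0.16 (log2, SE, edgeR adjusted p = 0.000144). Ctsd, the lysosomal protease cathepsin D, fell (log2 fold change -0.65 ± 0.12, SE, edgeR adjusted p = 0.00442), as did the secreted serine protease Htra1 (-0.67 ± 0.17, SE, edgeR adjusted p = 0.0273). The call of Htra1 was lost under 7 of 14 alternative analyses. Pappa, which encodes PAPP-A, the protease of IGFBP4, was at most 0.510 TPM in any library (log2 fold change 0.62 ± 1.31, SE, edgeR adjusted p = 0.859).

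Of 10 tested genes for receptor adaptors and for signaling proteins recruited with them, 2 rose and 1 fell, against 4.68% and 3.8% of all genes. Gab1, a docking protein for SHP2 and PI3K, had 28.4, 27.9 and 30.04 TPM in controls and 311, 276 and 257 in ablated libraries, with little spread in either group (log2 fold change 2.91 ± 0.14, SE, edgeR adjusted p = 2.39e-07). Grb14, an inhibitory adaptor, went from 2.41 ± 1.18 to 11.5 ± 1.68 TPM (SD, n = 3, edgeR adjusted p = 0.0493), a call lost under 8 of 14 alternatives. Irs2, a substrate of both IGF1R and INSR, fell (log2 fold change -0.65 ± 0.15, SE, edgeR adjusted p = 0.0144), a call lost under 5. Its partner Irs1 did not pass (-0.01 ± 0.26, adjusted p = 0.992), nor did the imprinted inhibitor Grb10 (0.06 ± 0.16, adjusted p = 0.906) or Shc1, the most abundant adaptor in controls at 161 ± 8.39 TPM (adjusted p = 1.00).

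Downstream, 1 of 21 tested genes of PI3K, Akt and mTOR signaling rose (4.76%) and 0 fell, against 4.68% and 3.8% of all genes. The one was Pik3r3, a regulatory subunit of PI3K, from 1.24 ± 0.492 to 7.37 ± 1.96 TPM (SD, n = 3, log2 fold change 2.35 ± 0.43, SE, edgeR adjusted p = 0.00434). Akt2, the most abundant of them in controls, did not pass (0.26 ± 0.14, adjusted p = 0.334), although limma on log2(TPM + 1) put it past the threshold. Of 14 FoxO factors and genes they regulate, 1 rose (7.14%) and 0 fell, beside the same shares of all genes. The one was Fbxo32, the ubiquitin ligase atrogin-1, from 8.44 ± 2.38 to 44.8 ± 7.95 TPM (log2 fold change 2.19 ± 0.23, SE, edgeR adjusted p = 6.59e-05). Txnip, the most abundant of that list in controls, did not pass (-0.40 ± 0.15, adjusted p = 0.139).

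Of the 6 genes of growth hormone input, which drives Igf1 in liver and other tissues, Ghr alone passed. The growth hormone receptor had 138, 130 and 174 TPM in controls and 75.3, 80.1 and 85.6 in ablated libraries, and fell (log2 fold change -1.19 ± 0.17, SE, edgeR adjusted p = 0.000653). Of the Igf2 mRNA-binding proteins, neither of the 2 tested passed, with Igf2bp2 at -0.63 ± 0.34 (adjusted p = 0.335) and Igf2bp1 and Igf2bp3 at no more than 1 TPM in any library.

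Genes whose proteins carry an IGFBP domain but bind IGFs weakly or not at all included 3 of 10 that rose and 1 that fell, Htra1. The shares over all genes were 4.68% and 3.8%. Ccn2, connective tissue growth factor, went from 83.1, 95.8 and 119 TPM to 475, 504 and 513 (log2 fold change 2.12 ± 0.15, SE, edgeR adjusted p = 4.21e-06). Ccn1 rose from 1338 ± 175 to 3230 ± 118 TPM (SD, n = 3, log2 fold change 1.06 ± 0.11, SE, edgeR adjusted p = 7.86e-05). Ccn4 rose by 0.73 ± 0.20 (log2, SE, edgeR adjusted p = 0.0450), a call lost whenever any 1 library was left out.

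**Figure D3:**
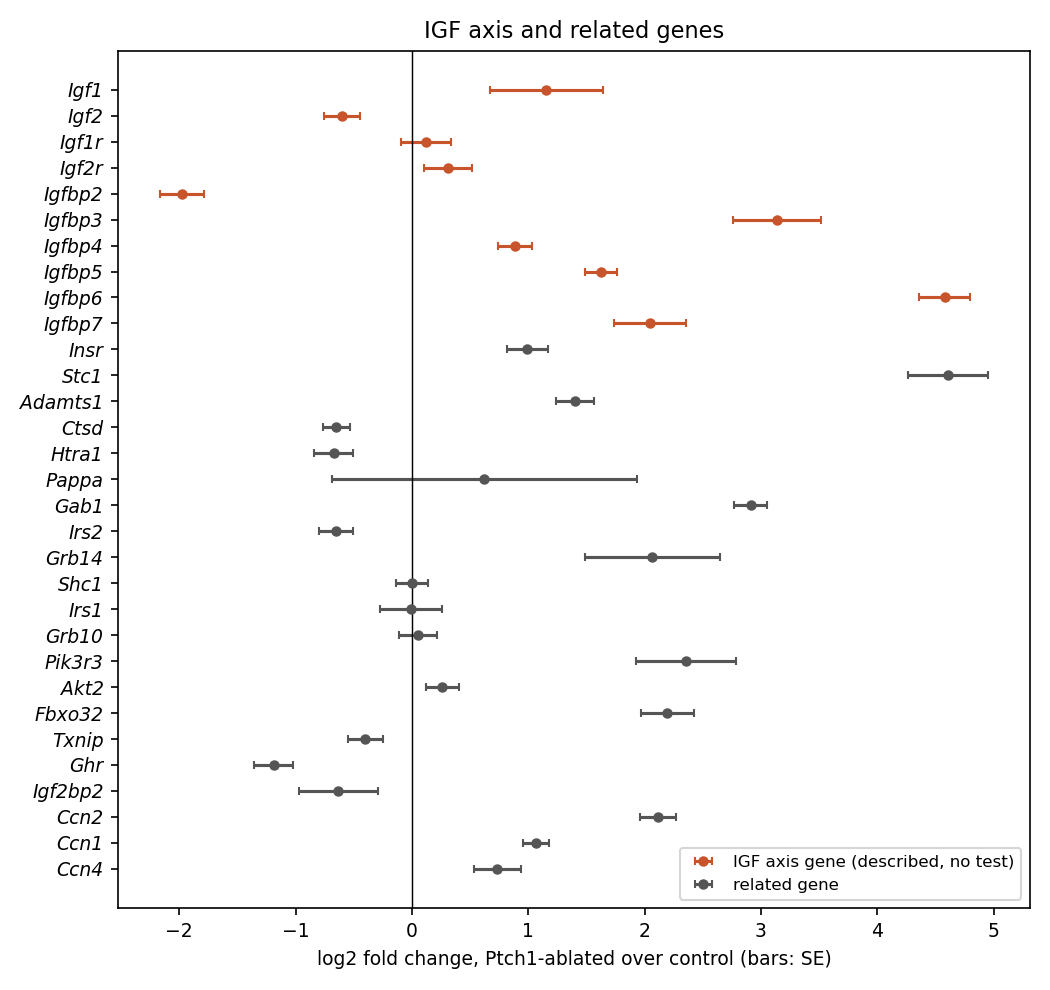
Log2 fold change of Ptch1-ablated over control (horizontal, bars are SE) for the 10 IGF axis genes (orange, described without a test) and the named related genes (grey). Values run from -1.98 for Igfbp2 to 4.58 for Igfbp6 among the axis genes, and Stc1 reaches 4.61.

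**Figure D4:**
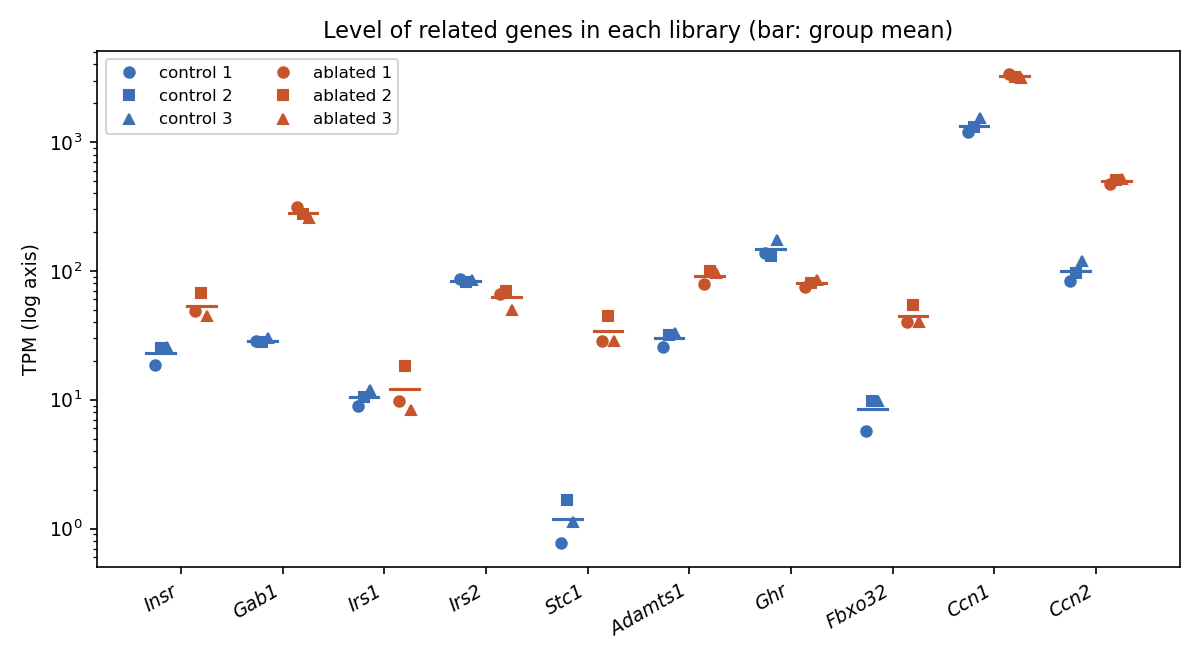
TPM on a log axis (vertical) of 10 related genes (horizontal) in the control libraries (blue) and Ptch1-ablated libraries (orange), with a bar at each group mean. Insr, Gab1, Stc1, Adamts1, Fbxo32, Ccn1 and Ccn2 are higher in every ablated library than in any control, Ghr and Irs2 are lower, and Irs1 overlaps.

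The genes with the pattern over the 6 libraries most like Igfbp6 and Igfbp2 were sought among 12147 genes whose counts averaged 50 or more, by the root mean square difference of log2(CPM + 1) after centring each gene. For Igfbp6 they were Thy1, a surface glycoprotein of mesenchymal cells (difference 0.20), Cldn11, a tight junction protein (0.22), and Gas6, the ligand of the TAM receptor kinases (0.24). Thy1 stood at 1.36 CPM in controls and 42.1 in ablated libraries, and Gas6 at 48.6 and 848. Cldn11 stood at 0.0672 and 19.6 CPM, with only 0, 3 and 1 counts in the controls. Its log2 fold change of 8.15 ± 0.65 (SE) was larger than the 4.58 of Igfbp6. The likeness of Cldn11 thus rests on the 1 CPM added before the logarithm. That of Thy1 depends on it in part too. Thy1 had 32, 29 and 25 counts in controls, and its log2 fold change was 4.95 ± 0.30 (SE). For Igfbp2 they were Lonrf2 (0.19), Mxra7 (0.20) and Cmbl (0.21), with Mxra7 at 98.9 CPM in controls and 26.7 in ablated libraries. This likeness rests on 6 libraries that fall into the study's groups.

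Markers of cells other than keratocytes that a sort could carry were also measured. The 7 corneal epithelial markers summed to 55.1 to 91.3 TPM in controls and 4.92 to 9.88 in ablated libraries. Of these, 3 were lower and 1 higher, against 3.8% and 4.68% of all genes. Krt5, Krt14 and Krt15 were lower. Krt12 went the other way, at 0 TPM in every control and 1.26, 3.14 and 3.23 TPM after ablation (edgeR adjusted p = 0.0177). The 5 Schwann cell markers summed to 124 to 141 and 184 to 200 TPM, with 1 higher, and the 5 melanocyte markers to 1.28 to 5.59 and 2.48 to 5.83 TPM, with none past the threshold. Of the 7 keratocyte markers tested 5 were lower (Kera, Aldh3a1, Aldh1a1, Tkt and Cd34), and of the 7 leukocyte markers 1 was higher. The part of other cells in the levels of Igfbp3, Igfbp5 and Igfbp6 was not tested.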

How the data were processed

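Estimated gene counts were analysed for 3 control and 3 Ptch1-ablated libraries, grouped and numbered from their titles. The submitters' processing notes name mm9, Bowtie2 2.2.5 and RSEM 1.2.12. The labels describe a TruSeq kit, whereas the study's methods describe ribosomal RNA depletion and BGISEQ sequencing, and this was not settled. The table the authors deposited holds RSEM expected counts, not normalized, in which reads matching several genes are split. It also holds TPM, which the authors scaled for length and then to the same total in each library. The FPKM that the authors deposited are scaled for length and depth. Group averages deposited by the authors were not used.

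Counts were rounded to whole numbers, filtered with filterByExpr, scaled by TMM and compared with edgeR's quasi-likelihood test (edgeR 4.0.16, R 4.3.3, two-sided) without covariates. The SE of a log2 fold change was derived from that test, as its absolute value over the square root of the F statistic. P-values were adjusted by Benjamini-Hochberg over 13888 genes, here the edgeR adjusted p. A call needed an adjusted p of at most 0.05 and, where stated, a fold change of at least 2. CPM are counts per 1000000 of the TMM-scaled total. A count of 0 allows up to 3 counts, or 0.121 to 0.148 per 1000000 counts, which covers counting error only. The fit was tested on simulated data. Levels between genes were compared in TPM, and log2 fold changes are ablated over control.

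The 10 genes and all lists were chosen with earlier results of these data known. Named were all 10 genes and, of each related list, the 4 with the smallest adjusted p among those past 0.05 and the most abundant in controls, with Insr, Irs1, Pappa and Grb10 always, the 3 genes nearest in pattern to the largest rise and fall, and Ptch1 and Gli1. Promoters, motifs, gene order and older symbols came from RefSeq tables of GRCm38.p6, a different build from the one named, so gene positions in the files are not given. Alternatives were DESeq2 1.42.0, RLE scaling, library totals only, no filter, a mean count of at least 50, a replicate block, limma 3.58.1 on log2(TPM + 1) and log2(TPM + 0.1), no fold minimum, shares from counts, and leaving out each library.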

Additional observations from a re-analysis of the deposited data

How the results depend on the processing

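Of all genes, 467 were called higher and 296 lower. Limma on log2(TPM + 1) called 768 higher, and dropping the fold minimum gave 528 lower. Leaving out 1 library gave 350 to 477 higher and 244 to 288 lower. Of the related genes 10 rose (8 to 9 without a library) and 4 fell (2 to 4). Only 2 fell with library totals only, under both limma fits, without control replicate 2 and without ablated replicate 3. The median log2 fold change of all genes, 0.0046, was 0.17 with library totals only and 0.19 and 0.22 in the limma fits, and Igf2 moved from -0.60 to -0.43 and -0.41 (both limma fits), and Igfbp5 from 1.62 to 1.80, 1.82 and 1.83.

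Without 1 library the log2 fold change ran from 0.77 to 1.94 for Igf1, -0.66 to -0.52 for Igf2, -0.18 to 0.25 for Igf1r, 0.11 to 0.42 for Igf2r, -2.15 to -1.72 for Igfbp2, 2.84 to 3.60 for Igfbp3, 0.76 to 1.01 for Igfbp4, 1.51 to 1.71 for Igfbp5, 4.41 to 4.74 for Igfbp6 and 1.91 to 2.24 for Igfbp7. With counts not divided by length Igfbp2 held 77.4% in controls and 29.0% in ablated libraries, and Igfbp4 18.0% and 47.7%.

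Libraries with the same number were not treated as pairs in the main fit. Their deviations from the group means correlated at -0.05, -0.05 and 0.04. With 3 libraries a group, this cannot show whether they were handled together. With the replicate number as a block, 395 genes were called higher and 268 lower, and 10 related genes rose and 4 fell. Grb14 was then no longer past the threshold, and Igf1 had a log2 fold change of 1.42. The block took the SE of Igfbp2 from 0.19 to 0.11 and that of Igfbp4 from 0.15 to 0.10. It took the SE of Igfbp3 from 0.38 to 0.42 and that of Igfbp6 from 0.22 to 0.24. Of 21 named related genes, 16 kept their side of the threshold under every alternative run (14 in all, with Pappa not tested at a mean count of at least 50), the exceptions being Htra1, Irs2, Grb14, Ccn4 and Akt2. The cause of these changes was not tested. With 3 libraries a group and control counts as low as 69 for Igf1 and 52 for Igfbp3, the spread between libraries limits these 2 values most.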
